A study of Mus musculus with 10 samples.

Results

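The genes described here carry calcium in and out of the cytosol of a skeletal muscle fiber at each contraction. They are 10 genes taken by their symbols, of 39179 gene identifiers in the count files: Cacna1s, Stac3, Ryr1, Trdn, Casq1, Jph1, Jph2, Atp2a1, Sln and Pvalb. All 10 were found in the files by their Ensembl identifiers and all 10 had enough reads to be tested. RNA was read from the tibialis anterior, a fast muscle of the lower leg, in 4 Control mice and 6 mice with tumors grown from LLC (Lewis Lung Carcinoma), an established line of murine lung tumor cells that causes cachexia, a wasting of muscle and fat.

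The LLC mice had received 750000 LLC cells in PBS under the skin of each flank, and the Control mice PBS alone. The sample labels give the strain as C57BL/6J, the age at injection as 10 weeks and the time after injection as 23 days, whereas the series' design text gives C57BL/10, male, 8 weeks and 22 days, and these differences could not be settled. No allele was altered in either group. The sequenced LLC mice came from those that lived to the end of the experiment, each mouse gave 1 library, and all libraries shared 1 sequencing lane, so there was no sequencing batch within which to repeat a comparison. Every library was made from total RNA with an RNA integrity number above 8.

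At the triad, a transverse tubule of the surface membrane lies between the terminal cisternae of the sarcoplasmic reticulum, the calcium store of the fiber. Depolarization moves the voltage sensor in the tubule (Cacna1s, helped by the adaptor Stac3), which opens the release channel in the store membrane (Ryr1), while junctophilins (Jph1, Jph2) hold the membranes together and triadin (Trdn) ties the channel to the store's calcium buffer calsequestrin (Casq1). The pump SERCA1 (Atp2a1), which the small peptide sarcolipin (Sln) inhibits, then returns calcium to the store, and in fast fibers parvalbumin (Pvalb) binds calcium in the cytosol and so speeds relaxation.

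Total counts per library were 19294257 to 21303084 in Control and 16693209 to 19962335 in LLC, with the lowest total in LLC 1. Levels are given as CPM, counts brought to the same library size with TMM factors, and a count of 3 then equals 0.148 to 0.174 CPM. LLC 1 stood apart from the other libraries, with the largest TMM factor (1.17) and the smallest share of mitochondrial reads (22.0%). That share was 22.9% (LLC 5) to 27.9% in the other LLC and 28.4% to 30.7% in Control. Pairs of libraries with LLC 1 differed by a chi-square per degree of freedom of 119 to 195, against at most 8.67 in Control. The other LLC libraries were not alike either. Their pairs ran from 8.37 (LLC 3 and LLC 4) to 60.7 (LLC 4 and LLC 5), and those with LLC 5 were the largest, at 27.5 or more. Results of the 10 genes, and of the other calcium handling genes named, are therefore given with and without LLC 1. The tissue label was checked on 8 fiber genes (Ckm, Acta1, Myh4, Tnnt3, Actn3, Mybpc2, Mylpf and Eno3). Of these, 0 were past the threshold over all samples, beside 5.63% of all tested genes. Their summed level was 109206 to 116366 CPM in Control, 105301 to 122035 in LLC 2 to LLC 6 and 70158 in LLC 1. Of the 8, Acta1, Mylpf and Eno3 had every LLC sample below every Control sample (37.5%, beside 16% of all tested genes), and without LLC 1 Eno3 passed the threshold, lower in LLC with a log2 fold change of -0.69 (edgeR adjusted p = 0.0156). The 10 genes summed to 33046 to 36781 CPM in Control and 26983 to 39933 in LLC, again with LLC 1 lowest.

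None of the triad and calcium reuptake genes was called different between tumor-bearing and Control muscle, Sln and Casq1 had the largest fold changes, and LLC 1 had the most extreme values. Counts were compared by edgeR's quasi-likelihood test, and a gene was past the threshold at a Benjamini-Hochberg adjusted p of at most 0.05 over all tested genes with a change of at least 1.5-fold. Of the 10 genes, 0 were past the threshold, where the share over all 12690 tested genes was 5.63% (715 genes), with 1.65% higher and 3.99% lower in LLC (209 and 506 genes). At an unadjusted p of at most 0.05 there were 2 of the 10, Ryr1 and Sln, beside 27.4% of all tested genes. With the same threshold 0 of the 10 passed with DESeq2 (beside 8.29% of all tested genes), with limma voom (7.86%) and without LLC 1 (7.65%). The groups did not overlap for 0 of the 10 genes, beside 16% of all tested genes. Their log2 fold changes were above 0 for 5 genes and below 0 for 5, with a median of -0.0024, and the median over all tested genes was 0.0019. In bulk muscle, fewer fibers with a transcript and less of it per fiber cannot be told apart.

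**Figure D1:**
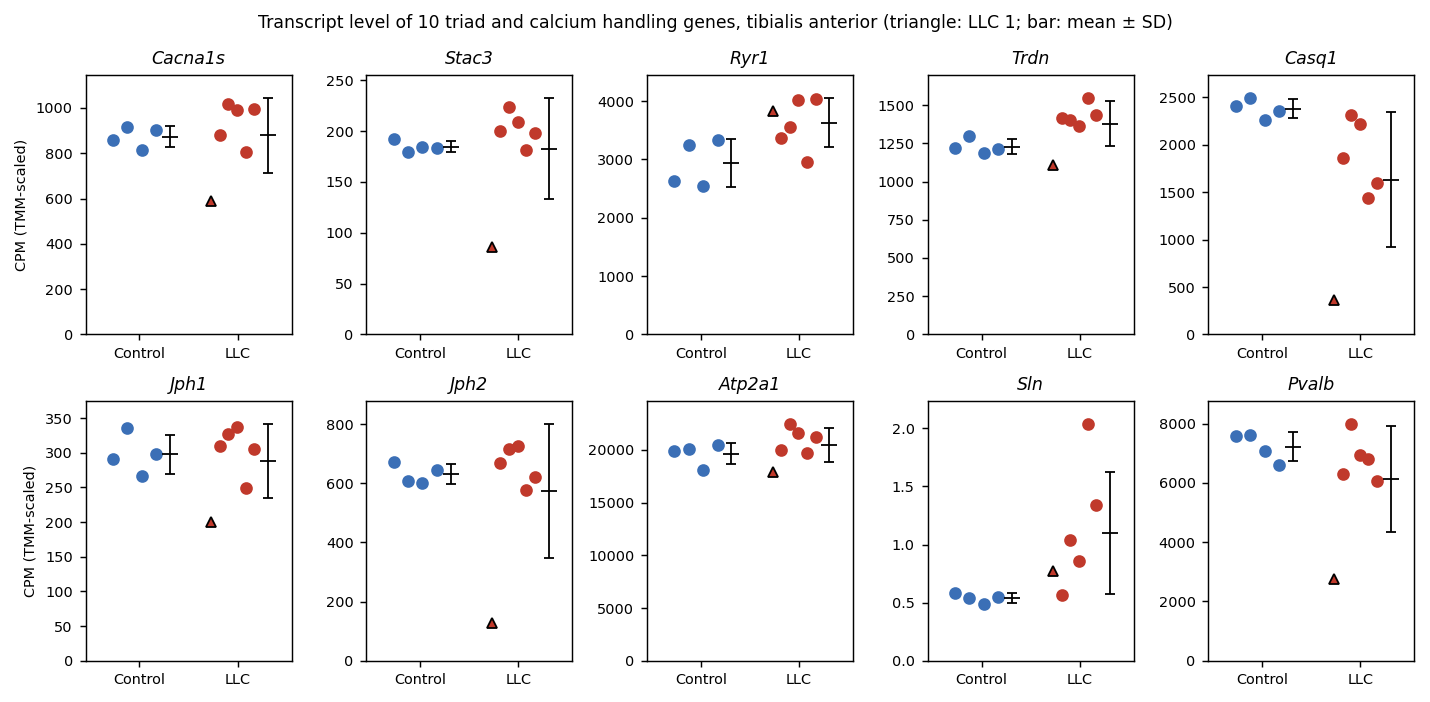
Level of each of the 10 genes in every library, in TMM-scaled CPM on linear axes from 0, for 4 Control (blue) and 6 LLC (red) samples. The triangle is LLC 1, the bars are mean ± SD, and for Casq1, Jph2, Pvalb and Stac3 the triangle lies far below every other point.

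The voltage sensor gene had an estimated change near 0. Cacna1s (ENSMUSG00000026407, chr1:136052750-136119822, plus strand) encodes the pore subunit of the dihydropyridine receptor, the channel of the transverse tubule that senses voltage. Its level was 857, 915, 816 and 904 CPM in Control 1 to 4, and in LLC the lowest value was 588 (LLC 1), the median 934 and the highest 1016. The LLC values lay on both sides of the Control range, with 3 above it and 2 below it. The log2 fold change was 0.01 ± 0.15 (SE, 4 against 6 mice, edgeR adjusted p = 0.972) with a 95% interval of -0.31 to 0.33, and 0.11 (edgeR adjusted p = 0.401) without LLC 1. Its value turned to below 0 under 8 of 21 other settings, the lowest at -0.04. Some of the 21 change only the threshold and so keep the same value.

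Stac3 (ENSMUSG00000040287, chr10:127501686-127508823, plus strand) encodes the adaptor needed to bring the sensor to the triad and couple it to the release channel. It was at 192, 179, 184 and 183 CPM in Control and, from lowest to highest, at 85.7 (LLC 1), a median of 199 and 224 in LLC. Except for LLC 1, the LLC samples were within or above the Control range, 4 of them above it. Its log2 fold change was -0.01 ± 0.21 (SE, edgeR adjusted p = 0.971) over all samples and 0.14 (edgeR adjusted p = 0.193) without LLC 1. The value was also above 0 without Control 1 (0.0045) and with limma voom (0.14).

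Ryr1 had the lowest unadjusted p of the release genes. It encodes the ryanodine receptor, the channel through which the store empties (ENSMUSG00000030592, chr7:29003344-29125179, minus strand). Control values were 2635, 3249, 2539 and 3329 CPM, and LLC values ran from 2955 (LLC 5) through a median of 3693 to 4036. In LLC, 5 of 6 samples were above all Control samples, LLC 1 among them, and LLC 5 was inside the Control range. The log2 fold change was 0.30 ± 0.13 (SE, 95% interval 0.01 to 0.59), which did not pass the correction over all genes (edgeR adjusted p = 0.167). Without LLC 1 it was 0.29 (edgeR adjusted p = 0.113). With limma voom, which gives each sample a quality weight, it was 0.33 with an adjusted p of 0.0313, still under 1.5-fold, and 18% of all tested genes had an adjusted p of at most 0.05 in that fit.

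Trdn, whose product triadin links the release channel to calsequestrin, had a similar small shift in all LLC samples but LLC 1. The gene is ENSMUSG00000019787 (chr10:33080554-33476709, plus strand). Its Control values were 1219.9, 1297, 1188 and 1211 CPM, and its LLC values had a lowest of 1105 (LLC 1), a median of 1406 and a highest of 1545. LLC 1 was below all Control samples and the other 5 were above all of them. LLC differed by a log2 fold change of 0.16 ± 0.11 (SE, edgeR adjusted p = 0.323), which was 0.23 (edgeR adjusted p = 0.0464) without LLC 1, which is under 1.5-fold. In that fit 14.2% of all tested genes had an adjusted p of at most 0.05. With limma voom Trdn was at 0.20 (adjusted p = 0.0332), under 1.5-fold, where the share of all tested genes was 18%.

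Casq1 had the largest spread of the abundant members among tumor-bearing mice. It encodes the calsequestrin of fast muscle, the protein that holds calcium inside the terminal cisternae (ENSMUSG00000007122, chr1:172209894-172219868, minus strand). It was at 2413, 2492, 2260.3 and 2361 CPM in Control, and in LLC 1 to 6 at 363, 1860.0, 2314, 2220.3, 1441 and 1599 CPM. In LLC, 5 of 6 samples were below every Control sample, and LLC 3 lay inside the Control range. The log2 fold change was -0.54 ± 0.36 (SE, edgeR adjusted p = 0.337) with a 95% interval of -1.34 to 0.25, and without LLC 1 it was -0.33 (edgeR adjusted p = 0.104). The coefficient of variation was 43.4% in LLC and 4.08% in Control. A standard deviation of log2 CPM as large as that of Casq1 within LLC was found in 1.84% of all tested genes, and in 2.19% of the 778 with a mean log2 CPM of at least 7.

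The junctophilins, which span the gap between tubule and store, parted from each other in LLC 1. Jph1 (ENSMUSG00000042686, chr1:16964560-17097889, minus strand) was at 291, 335, 266 and 299 CPM in Control and between 199.6 (LLC 1) and 337 in LLC, with a median of 307. Jph2 (ENSMUSG00000017817, chr2:163336242-163397993, minus strand) was at 671, 607, 601 and 645 CPM in Control. In LLC 1 to 6 it was at 127, 668, 718, 727, 578 and 623 CPM. For Jph2 the 5 LLC samples other than LLC 1 thus spread closely around the Control range, whereas LLC 1 was far below both groups. The log2 fold changes were -0.05 ± 0.14 for Jph1 (SE, edgeR adjusted p = 0.847) and -0.14 ± 0.35 for Jph2 (SE, edgeR adjusted p = 0.819). Without LLC 1 both turned to above 0, at 0.04 (edgeR adjusted p = 0.792) and 0.08 (edgeR adjusted p = 0.547).

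The gene of the store's pump varied least among the tumor-bearing mice. Atp2a1 (ENSMUSG00000030730, chr7:126445858-126463108, minus strand) was at 19933, 20081, 18129.6 and 20428 CPM in Control and between 17909.8 (LLC 1) and 22409.6 in LLC, with a median of 20637. The highest LLC value was 1.25 times the lowest, the narrowest range of the 10 genes. Its log2 fold change was 0.06 ± 0.12 (SE, edgeR adjusted p = 0.768) with a 95% interval of -0.21 to 0.33, and 0.10 (edgeR adjusted p = 0.430) without LLC 1.

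Sln, the inhibitor of that pump, had the largest fold change of the 10 genes on very few reads. In the adult mouse sarcolipin is mainly made in the atria and in slow muscle, and it is scarce in fast limb muscle. The gene (ENSMUSG00000042045, chr9:53850164-53854560, plus strand) had 11, 11, 9 and 10 counts in Control and 15, 10, 18, 17, 41 and 24 in LLC 1 to 6. This gave 0.583, 0.543, 0.487 and 0.548 CPM in Control, and in LLC 0.565 (LLC 2) at the lowest, a median of 0.95 and 2.03 (LLC 5) at the highest. In LLC, 5 of 6 samples were above every Control sample, LLC 1 among them, and LLC 2 was inside the Control range. Its log2 fold change was 1.03 ± 0.35 (SE, 95% interval 0.26 to 1.79), which did not pass the correction over all genes (edgeR adjusted p = 0.0965). It was 1.12 (edgeR adjusted p = 0.0512) without LLC 1, 1.17 (0.0507) without LLC 2 and 0.75 (0.139) without LLC 5, and over 20 other settings the adjusted p lay between 0.0507 and 0.363. A set of 6 genes of cardiac muscle, a tissue that also makes sarcolipin, summed to 4.99 to 9.20 CPM in Control and 3.75 to 6.43 in LLC. Of these 6, 2 had enough reads to be tested. A set of 7 slow-fiber genes summed to 65.6 to 119 CPM in Control and 39.7 to 54.2 in LLC. The source of the Sln reads was not tested.

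Pvalb, the most abundant of the 10 genes per length in Control, was low mainly in LLC 1. Parvalbumin is the soluble calcium buffer of fast fibers (ENSMUSG00000005716, chr15:78191114-78206400, minus strand). Control values were 7592, 7626, 7061 and 6603 CPM. In LLC 1 to 6 the values were 2768, 6303, 7973, 6938, 6802 and 6051 CPM. Of the other 5 LLC samples, LLC 3 was above the Control range, LLC 2 and LLC 6 somewhat below it and the rest inside it. Its log2 fold change was -0.23 ± 0.23 (SE, edgeR adjusted p = 0.518) and -0.08 (edgeR adjusted p = 0.621) without LLC 1.

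**Figure D2:**
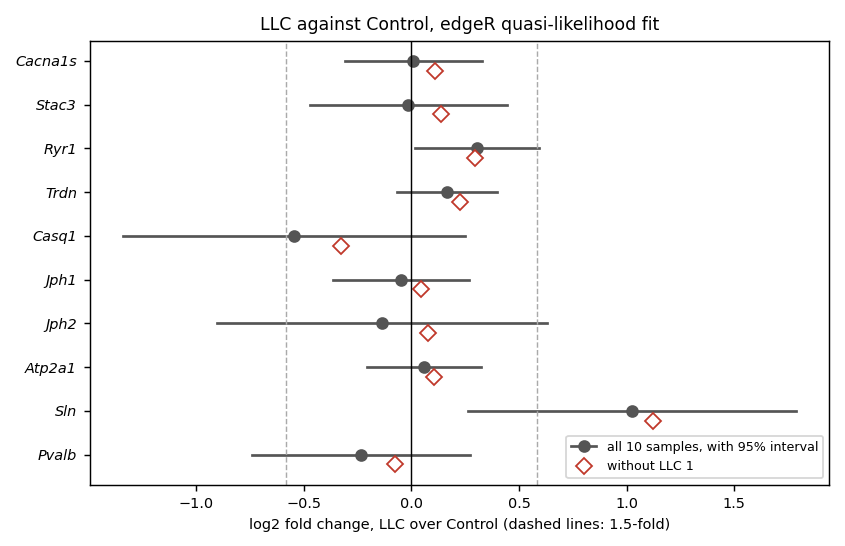
log2 fold change of LLC over Control for each gene, with the 95% interval from the quasi-likelihood fit over all 10 samples (gray) and the value without LLC 1 (red diamonds). The dashed lines mark 1.5-fold, the intervals of Ryr1 and Sln lie above 0, and the widest are those of Casq1, Jph2 and Sln.

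Within LLC 1 the 10 genes were unequally low. Its value was below every other sample for 8 of the 10 genes, which held for 30.4% of all tested genes. Relative to the Control mean, Casq1 was at 15.2% in LLC 1, Jph2 at 20.2%, Pvalb at 38.3% and Stac3 at 46.4%. In contrast, Cacna1s was at 67.3%, Jph1 at 67.0%, Trdn at 89.9% and Atp2a1 at 91.2%, and Ryr1 and Sln were above the Control mean, at 131% and 143%. Against the median of the other LLC samples, a value as low as that of Casq1 was found in 1.02% of all tested genes, and one as low as that of Jph2 in 0.954%. For Pvalb and Stac3 the shares were 5.50% and 6.17%. The other tumor-bearing animals were not alike either. LLC 2 was above the Control range for 3 genes and below it for 2, beside 26.1% and 27.3% of all tested genes. LLC 3 was above it for 8 and below it for 0 (27.9% and 28.3% of all tested genes), LLC 4 above it for 8 and below it for 1 (27.1% and 28.1%), and LLC 6 above it for 6 and below it for 2 (33.7% and 33.5%). LLC 5 was below it for 4 genes (Cacna1s, Casq1, Jph1 and Jph2) and above it for 2 (Sln and Trdn), beside 38.9% and 36.4% of all tested genes.

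**Figure D3:**
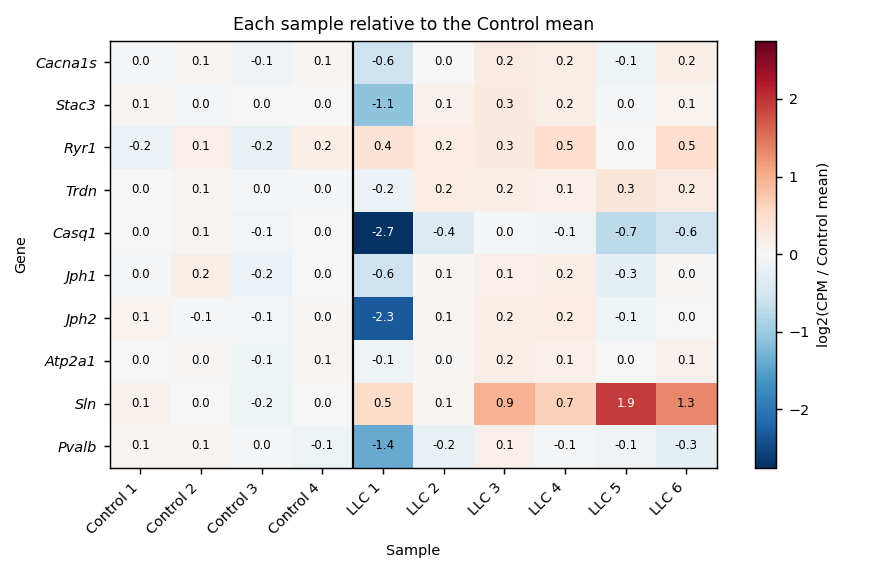
Level of each gene (rows) in each sample (columns) as log2 of its CPM over the Control mean, with blue below and red above it. LLC 1 carries the darkest blue cells, at -2.7 for Casq1 and -2.3 for Jph2, while Ryr1 is at 0.4 in the same sample.

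The genes that were lowest in LLC 1 are shown with the start of their promoters, so that their sequences can be compared. RefSeq promoter windows of build GRCm38.p6 were found for 6 of the 10 genes (8 windows), not for Sln, Jph1, Stac3 or Trdn. Below are the 250 bases before the annotated start of Casq1 (chr1:172219896-172220145, minus strand), Jph2 (chr2:163397994-163398243, minus strand) and Pvalb (chr15:78206401-78206650, minus strand), 5′ to 3′ on the strand of the gene. Capitals mark each E-box, CANNTG on either strand, the element that myogenic factors such as MyoD bind, and each match to the MEF2 element, named for the MEF2 factors of muscle.
Casq1: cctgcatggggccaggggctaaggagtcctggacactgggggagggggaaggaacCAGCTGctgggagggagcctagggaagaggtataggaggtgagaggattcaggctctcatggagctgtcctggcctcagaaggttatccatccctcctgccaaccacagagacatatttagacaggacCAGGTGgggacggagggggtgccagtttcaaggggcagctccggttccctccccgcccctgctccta
Jph2: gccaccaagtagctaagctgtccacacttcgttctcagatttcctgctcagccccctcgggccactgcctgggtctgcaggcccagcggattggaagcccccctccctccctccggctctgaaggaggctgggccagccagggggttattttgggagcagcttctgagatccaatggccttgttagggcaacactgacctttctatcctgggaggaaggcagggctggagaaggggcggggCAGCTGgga
Pvalb: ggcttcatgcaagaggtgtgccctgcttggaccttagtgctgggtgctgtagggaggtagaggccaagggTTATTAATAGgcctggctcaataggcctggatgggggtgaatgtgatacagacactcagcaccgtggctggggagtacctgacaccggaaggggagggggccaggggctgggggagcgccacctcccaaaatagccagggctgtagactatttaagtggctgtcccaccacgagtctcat
The Casq1 window held 2 E-boxes, 195 and 67 bases before the start, the Jph2 window 1 E-box 9 bases before it, and the Pvalb window 1 MEF2 match 180 bases before it and 0 E-boxes. A second annotated start of Pvalb had a window (chr15:78204238-78204487, minus strand) with 1 E-box, 111 bases before it, and 0 MEF2 matches. Over 32851 such windows of all genes, 66.2% held an E-box and 2.92% a MEF2 match, so an E-box is common in windows of this length. The windows of Cacna1s, Atp2a1 and Ryr1, genes less low or not low in LLC 1, held 2, 1 and 0 E-boxes, and 0 MEF2 matches each. A second annotated start of Jph2 had a window with 1 E-box, 29 bases before it. All of these are matches of letters only, and their part in the levels was not tested.

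Per kilobase of annotated exon, the order of the genes in Control was Pvalb at 6936 ± 467 CPM per kb (SD, n = 4), Atp2a1 at 5649 ± 296, Casq1 at 1221 ± 49.8, then Jph2, Ryr1, Cacna1s and Trdn between 131 and 148, Stac3 at 72.6 ± 2.08, Jph1 at 59.6 ± 5.70 and Sln at 0.410 ± 0.0301. Neighbors among Jph2, Ryr1, Cacna1s and Trdn overlapped between samples, and the other neighbors did not. The order in LLC kept Casq1 in the third place, at 837 ± 363 CPM per kb (SD, n = 6), and Sln in the last, at 0.836 ± 0.399. Pvalb (5897 ± 1710) and Atp2a1 (5889 ± 463) overlapped in LLC, as did neighbors among Ryr1, Trdn, Jph2 and Cacna1s and the pair Stac3 and Jph1. The abundant end of the scale is thus formed by the cytosolic buffer, the pump and the store buffer, with the channel, its sensor and its anchors at similar, lower levels. In the annotation, exons of Ryr1, Cacna1s, Atp2a1, Casq1 and Jph1 overlap genes on the opposite strand. The study's methods name HTSeq's default settings, which count by strand, but the files list other identifiers than the methods name, so whether these counts were made by strand is not certain and the part of these partners was not tested.

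Ratios of transcripts within a library do not depend on scaling. They were compared by an exact permutation test over samples (210 arrangements), two-sided, where the smallest possible p is 0.00476, with adjustment over the 5 ratios. The log2 ratio of Sln to Atp2a1, inhibitor to pump, was higher in LLC by 0.82 (exact permutation p = 0.0238, adjusted p = 0.119), with 5 of 6 LLC samples above all Control samples. The ratio of Cacna1s to Ryr1, sensor to channel, differed by -0.32 (exact permutation p = 0.0667, adjusted p = 0.167), with 4 of 6 LLC samples below all Control samples, and with 1 sample left out the unadjusted p ran from 0.0397 (without LLC 3, at -0.37) to 0.238. Neither passed the adjustment. Without LLC 1 the differences were 0.86 for Sln to Atp2a1 (exact permutation p = 0.0317) and -0.19 for Cacna1s to Ryr1 (p = 0.0556), both without adjustment.

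The other ratios set a gene against its slow-muscle or heart counterpart or its paralog. Atp2a2, the SERCA2 pump of slow and cardiac muscle, was at 20.8, 23.9, 25.1 and 24.2 CPM in Control and, from lowest to highest, at 18.6, a median of 21.1 and 38.4 (LLC 1) in LLC. Its log2 fold change was 0.0015 ± 0.19 (SE, edgeR adjusted p = 0.997), or -0.19 (edgeR adjusted p = 0.137) without LLC 1. Its log2 ratio to Atp2a1 differed by -0.10 (exact permutation p = 0.757, adjusted p = 0.790). LLC 1 lay above all Control samples and the other 5 below all of them, so that without LLC 1 the difference was -0.29 (exact permutation p = 0.00794). The groups were then fully separated, so this p is the smallest that those samples allow. Like the other permutation p-values without LLC 1, it was not adjusted. Casq2, the calsequestrin of heart and slow muscle, was at 22.6, 22.1, 23.7 and 30.2 CPM in Control and between 18.0 (LLC 1) and 27.2 in LLC, with a log2 fold change of -0.06 ± 0.13 (SE, edgeR adjusted p = 0.789), and 0.02 (edgeR adjusted p = 0.931) without LLC 1. Its log2 ratio to Casq1 was higher in LLC by 0.69 (exact permutation p = 0.105, adjusted p = 0.175), and by 0.38 (exact permutation p = 0.111) without LLC 1. Per kilobase, Jph2 stood at 2.13 to 2.71 times Jph1 in Control and at 0.750 times in LLC 1, where the order of these paralogs was turned, against 2.40 to 2.73 in the other LLC samples. The log2 ratio of Jph2 to Jph1 differed by -0.26 (exact permutation p = 0.790, adjusted p = 0.790), and by 0.03 (exact permutation p = 0.730) without LLC 1.

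**Figure D4:**
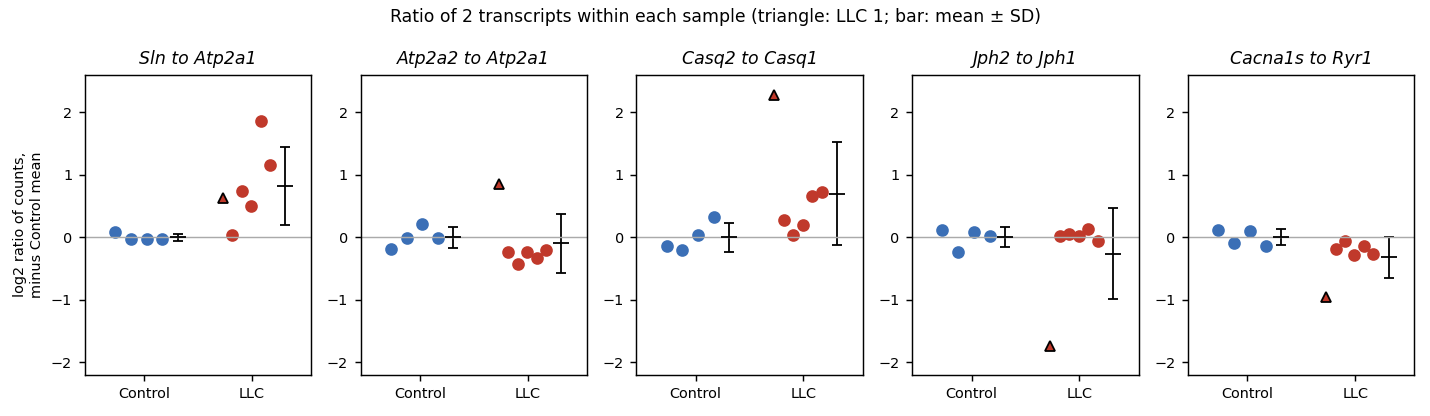
log2 ratio of the counts of 2 genes within each sample, minus the Control mean, for 4 Control (blue) and 6 LLC (red) samples, with LLC 1 as a triangle and bars for mean ± SD. LLC 1 is the extreme LLC sample in 4 of the 5 panels, and Sln to Atp2a1 is the one in which LLC 5 is.

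Other genes of calcium handling were read from 7 lists of 82 genes, of which 75 were tested (Ryr2, Ryr3, Fkbp1b, Atp2b2, Trpc1 and Mcub had too few reads, and Strit1 was not analysed here). Of these 75, 1 was past the threshold (1.33%, against 5.63% of all tested genes), 30 were higher and 45 lower in LLC, and 16 had an unadjusted p of at most 0.05 (21.3%, beside 27.4% of all tested genes). Without LLC 1, 10 of the 75 had an adjusted p of at most 0.05 whatever the fold (13.3%, beside 14.2% of all tested genes), and 2 of these, Myoz2 and Cacna1h, were also past 1.5-fold. The median log2 fold change of the 75 over all samples was -0.09, against 0.0019 over all tested genes. The groups did not overlap for 10 of them (13.3%, against 16% of all tested genes).

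The gene past the threshold was Myoz2, which encodes calsarcin-1, a Z-disc protein of slow and cardiac muscle that binds and restrains the phosphatase calcineurin. It was at 27.1, 31.6, 25.1 and 45.4 CPM in Control and, from lowest to highest, at 12, a median of 14.7 and 26.2 (LLC 2) in LLC. It fell with a log2 fold change of -0.97 ± 0.23 (SE, edgeR adjusted p = 0.0284), or -1.01 (edgeR adjusted p = 0.0150) without LLC 1, and LLC 2 alone reached into the Control range. The call was lost in 6 of 10 fits with 1 library left out (Control 1, Control 2, Control 4, LLC 3, LLC 5 or LLC 6), in which the adjusted p went up to 0.105. The summed slow-fiber level was also lower in LLC, with 1 of its 7 genes, Myl2, past the threshold, beside 5.63% of all tested genes. With DESeq2, Myh7, Myl2 and Myl3 passed, beside 8.29% of all tested genes. Within each group the slow-fiber sum was highest in the same sample as Myoz2, at 119 CPM in Control 4 and 54.2 in LLC 2. The part of fiber type in this result was not tested. Of the other 15 tested genes of calcineurin, NFAT and CaMK signaling, 0 passed and the median of all 16 was -0.0037.

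Among the voltage sensor's other subunits and regulators, 0 of 7 were past the threshold over all samples, beside 5.63% of all tested genes. Cacna1h, a T-type calcium channel, was named after its values were seen. It was at -0.55 ± 0.18 (SE, edgeR adjusted p = 0.0842) on the log2 scale, and at -0.57 (adjusted p = 0.0193), under 1.5-fold, with limma voom. It was past the threshold without LLC 1 (-0.59, edgeR adjusted p = 0.0453) or without LLC 4 (-0.66, edgeR adjusted p = 0.0330). Rrad and Rem1, small GTPases that inhibit calcium channels, had the largest fold changes, 0.99 ± 0.48 (SE, edgeR adjusted p = 0.204) and -0.69 ± 0.31 (SE, edgeR adjusted p = 0.177), at levels of at most 4.01 CPM in any sample. Without LLC 1 these were 1.00 (edgeR adjusted p = 0.194) and -0.71 (edgeR adjusted p = 0.153), and Rem1 was past the threshold without LLC 4 (-0.98, edgeR adjusted p = 0.0357). Cacng1, the gamma subunit of the muscle channel, was named after its values were seen, since it was the gene of this list whose groups did not overlap. It was at 170.1, 189.6, 171 and 178 CPM in Control and between 194 and 491 (LLC 1) in LLC. Its log2 fold change was 0.63 ± 0.24 (SE, edgeR adjusted p = 0.129), or 0.40 (edgeR adjusted p = 0.0571) without LLC 1 and 0.30 (adjusted p = 0.0364) with limma voom. Thus the gamma subunit was highest in the library in which the pore subunit Cacna1s was lowest.

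Of the release channels and their modulators, 0 of 12 tested genes were past the threshold, beside 5.63% of all tested genes. Of the 12, 4 were higher and 8 lower. Homer2, a scaffold that binds ryanodine and inositol trisphosphate receptors, was at 18.5 to 22.9 CPM in Control and 8.13 to 18.4 in LLC (log2 fold change -0.56 ± 0.21, SE, edgeR adjusted p = 0.119). Selenon, a selenoprotein of the reticulum membrane whose loss causes a congenital myopathy, was at 4.44 to 5.25 CPM in Control and 2.72 to 4.36 in LLC (-0.46 ± 0.14, SE, edgeR adjusted p = 0.0774). Both had all 6 LLC samples below all Control samples. The groups did not overlap for 3 of the 12 genes (25%, beside 16% of all tested genes). The third was Asph, named after its values were seen, at 172 to 186 CPM in Control and 139 to 171 in LLC. Its log2 fold change was -0.17 ± 0.08 (SE, edgeR adjusted p = 0.200), or -0.13 (edgeR adjusted p = 0.178) without LLC 1. Homer2 and Selenon failed the correction with edgeR, also without LLC 1 (-0.48 with an edgeR adjusted p of 0.108 and -0.44 with 0.0641). With limma voom, Homer2 was at -0.39 (adjusted p = 0.0511) and Selenon at -0.54 (adjusted p = 0.0137), under 1.5-fold.

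For the architecture of the triad, 0 of 13 tested genes were past the threshold, beside 5.63% of all tested genes, and the median was 0.03. Tmem38b, a TRIC counter-ion channel of the reticulum, was at 44.2 to 48.6 CPM in Control, at 50.1 to 59.2 in LLC 2 to LLC 6 and at 138 in LLC 1 (log2 fold change 0.56 ± 0.27, SE, edgeR adjusted p = 0.201, and 0.24 without LLC 1, with an edgeR adjusted p of 0.0397 and under 1.5-fold). Fsd2 was at 281 to 335 CPM in Control and between 87.4 (LLC 1) and 333 in LLC (-0.41 ± 0.29, SE, edgeR adjusted p = 0.358, and -0.23 with 0.331 without LLC 1). LLC 1 was thus the extreme sample for both, in opposite directions.

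Among pumps, exchangers and pump inhibitors, 0 of 9 tested genes were past the threshold, beside 5.63% of all tested genes. Slc8a1, the sodium-calcium exchanger NCX1 of the surface membrane, was at 8.42, 11, 8.76 and 12.1 CPM in Control and between 12.7 and 16.9 in LLC, with all 6 LLC samples above all Control samples. Its log2 fold change was 0.55 ± 0.14 (SE, edgeR adjusted p = 0.0338), under 1.5-fold, where 6.99% of all tested genes had an adjusted p of at most 0.05. With 1 library left out its adjusted p ran from 0.0231 (without LLC 1, at 0.52) to 0.123. It was past the threshold, 1.5-fold included, without Control 4, LLC 2, LLC 3 or LLC 5. Exons of Slc8a1 overlap 2 genes on the opposite strand. Atp2a3, the SERCA3 pump of non-muscle cells, was at 6.96 to 8.15 CPM in Control and 4.76 to 7.76 in LLC (-0.40 ± 0.14, SE, edgeR adjusted p = 0.106). Without LLC 1, whose value of 7.76 CPM lay inside the Control range, it was -0.50 (edgeR adjusted p = 0.0118), under 1.5-fold, and the limma voom adjusted p was 0.00442.

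Of the store buffers and the genes of store-operated calcium entry, 0 of 10 tested genes were past the threshold, beside 5.63% of all tested genes. Of the 10, 3 were higher and 7 lower, with a median of -0.16. Srl, which encodes sarcalumenin, a calcium-binding protein of the longitudinal reticulum, was at 1743, 1897, 1654 and 1835 CPM in Control and between 673 (LLC 1) and 1576 in LLC, with a median of 1403. All LLC samples were below all Control samples for Srl. The groups did not overlap for 2 of the 10 genes (20%, beside 16% of all tested genes). The log2 fold change of Srl was -0.48 ± 0.21 (SE, edgeR adjusted p = 0.166), or -0.34 (edgeR adjusted p = 0.0689) without LLC 1. Orai2, a pore subunit of store-operated entry, was at 0.957 to 2.78 CPM in LLC and 1.04 to 1.59 in Control (0.36 ± 0.28, SE, edgeR adjusted p = 0.411, and 0.36 with 0.433 without LLC 1).

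Of the mitochondrial uptake genes, 0 of 8 tested were past the threshold, beside 5.63% of all tested genes. Of the 8, 2 were higher and 6 lower. Letm1, an ion exchanger of the inner mitochondrial membrane, was at 76.6 to 85.2 CPM in Control and 56.9 to 71.9 in LLC, without overlap (-0.29 ± 0.09, SE, edgeR adjusted p = 0.0735). The adjusted p was 0.0325 without LLC 1 by edgeR, 0.0263 by DESeq2 and 0.0194 by limma voom, all under 1.5-fold.

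**Figure D5:**
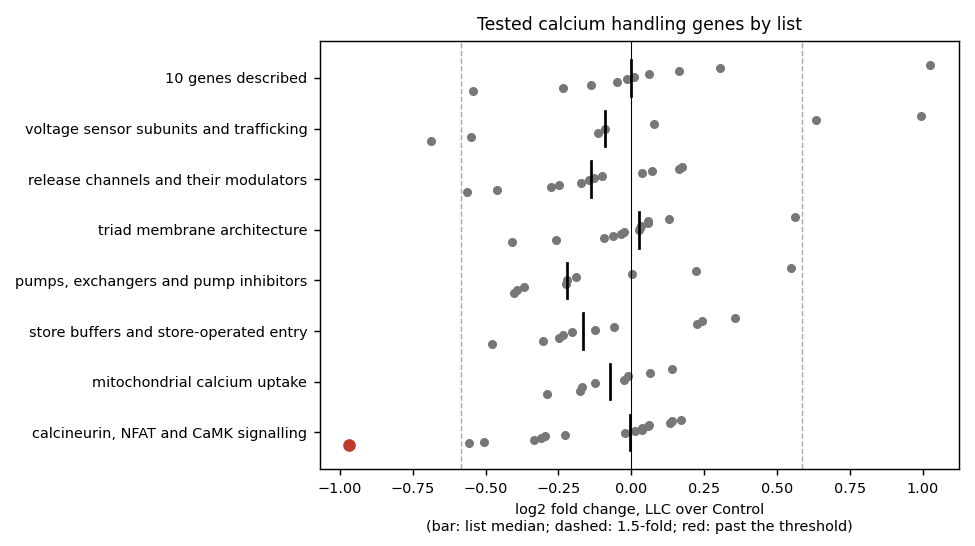
log2 fold change of LLC over Control for each tested gene (points) of the 10 genes described and of 7 wider lists, with the median of each list as a bar and 1.5-fold as dashed lines. The red point at -0.97 is Myoz2, the gene of the 75 in the wider lists past the threshold.

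For Sln, Ryr1 and Trdn, the 3 genes with the smallest p, the genes with the most similar profile over the 10 samples were sought by the root mean square difference of log2 CPM, each minus its own Control mean, among 7206 tested genes of at least 3 in mean log2 CPM. For Ryr1 they were Herc2, a giant ubiquitin ligase, at 0.0486 and Prex2 at 0.0989, where the median over all those genes was 0.345. Pfn2, a profilin, and Spg7, a mitochondrial protease subunit, were nearest to Trdn, at 0.0391 and 0.0617 (median 0.291). The genes nearest to Sln were Jpt1 at 0.253 and Ccn1, a matricellular protein, at 0.261 (median 0.747), which is a looser likeness.

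Markers of other cells and states moved between the groups in the same libraries. Neutrophil genes were past the threshold in 7 of 7 tested genes (higher in LLC) and fibroblast genes in 8 of 8 (lower), beside 5.63% of all tested genes. The neutrophil sum was 1.06 to 2.67 CPM in Control and 32.6 to 71.9 in LLC. The fibroblast sum was 309 to 397 CPM in Control and 57.8 to 102 in LLC. Of 4 fast IIA and IIX fiber genes, 0 were past the threshold. Their sum was 17330 to 21929 CPM in Control and 10657 to 17232.5 in LLC, so every LLC sample was below every Control sample. Of 4 fast IIB fiber genes, 1 was past the threshold (higher). Their sum was 44102 to 47354 CPM in Control, 46288.5 to 59755 in LLC 2 to LLC 6 and 32463 in LLC 1. Of 9 tested genes of denervation and regeneration, 1 was past the threshold (Myog, the myogenic factor myogenin, higher). With DESeq2, Runx1, Myog and Gadd45a of this list passed, beside 8.29% of all tested genes. The sum of the list was 97.5 to 120.1 CPM in Control, 130 to 153 in LLC 2 to LLC 6 and 251 in LLC 1. The low Casq1, Jph2, Pvalb and Stac3 of LLC 1 stood beside a low sum of fiber genes and a high sum of denervation genes in that library. None of these lists had a gene at 0 in every sample, and the part of these markers in the values of the 10 genes was not tested.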

How the data were processed

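Total RNA libraries of 10 mice (4 Control, 6 LLC) were sequenced in pairs of 100-base reads. The authors mapped reads with TopHat2 to mm10 and counted them with HTSeq at its default settings (by strand), per the methods for RefSeq genes, though the files list Ensembl identifiers. Whether those settings hold for these files is not certain, and the annotation release is not given in the sources used here. The deposited values are raw read counts per gene, 1 file per mouse. Of 39179 identifiers, 37693 were matched to GENCODE M21 (GRCm38) for symbols, coordinates and exonic length. Genes were kept by filterByExpr (count minimum 10), scaled by TMM and tested by the quasi-likelihood test of edgeR 4.0.16 (R 4.3.3) on group alone. DESeq2 (1.42.0 here; the authors used an earlier version) and voom of limma 3.58.1 were alternatives. Other alternatives changed scaling, filter, threshold and dispersion, left out each sample, or added the replicate number as a block. Standard errors come from the F statistic, log2 CPM used a prior count of 2, and ratios added 0.5 to each count. Depth limits Sln most, and floors cover counting error only. Replicates are separate mice per the methods. The procedure was tested on simulated data. The 10 genes, the lists and the tests were chosen with earlier results of these data known. Named beside the 10 were genes of each list past the threshold, or else the 2 with the largest fold changes, the partners in ratios, and the 2 genes most alike. A gene that this rule names is not reported here. MicroRNA libraries were not analysed here.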

Additional observations from a re-analysis of the deposited data

Results flagged for a closer look

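Of 30 groups of samples examined by Dixon's ratio (the gap of the extreme sample over the whole range of its group), 10 had a sample far from the others. Chance alone gives about 1 in 20, or 1.5 of 30, and the groups are not independent, since the genes share libraries. In 9 of the 10 the sample was LLC 1. Its log2 CPM was the lowest of 6 for Jph2 (ratio 0.868), Stac3 (0.779), Casq1 (0.744), Pvalb (0.739) and Trdn (0.627), the last just over the critical value. Among ratios of transcripts, LLC 1 was lowest for Jph2 to Jph1 (0.900) and for Cacna1s to Ryr1 (0.758), and highest for Atp2a2 to Atp2a1 (0.827) and Casq2 to Casq1 (0.689). The remaining one was Control 1, highest of 4 in the ratio of Sln to Atp2a1 (0.922), in a group whose per-length ratios ran only from 7.43e-05 to 8.06e-05.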

How the results depend on the processing

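Over 21 other settings, 192 of 209 fold changes of the 10 genes kept their direction and their side of the threshold. Another 16 changed sign, 10 of these with a sample left out. With robust dispersion, no fold limit or an unadjusted p, the fold changes were those of the main fit, so these settings did not test direction. Cacna1s was at -0.018 with upper-quartile factors, at -0.00034 with at least 10 counts in every sample and at -0.038 with the replicate number as a block. With limma voom, Jph1 was at 0.084, Jph2 at 0.064 and Stac3 at 0.14. Without 1 sample, Cacna1s ran from -0.036 to 0.11, Jph1 from -0.10 to 0.044, Jph2 from -0.22 to 0.078 and Stac3 from -0.080 to 0.14. Of the 10 genes, 1 (Sln) passed at an unadjusted p with 1.5-fold, and 0 passed in every fit without 1 sample. Sln had no value with at least 10 counts in every sample. The count over all genes, 715, became 475 with at least 10 counts in every sample, 1572 at an unadjusted p, and 415 to 966 without 1 sample. The count in the wider lists, 1, became 2 with no fold limit (Myoz2 and Slc8a1), 3 at an unadjusted p (Cacng1, Myoz2 and Rem1), and 0 to 3 without 1 sample. Without 1 sample, the difference in log2 ratio ran from 0.61 to 0.98 for Sln to Atp2a1 (exact permutation p 0.0159 to 0.0595), from -0.29 to -0.029 for Atp2a2 to Atp2a1, from -0.34 to 0.032 for Jph2 to Jph1 and from -0.37 to -0.19 for Cacna1s to Ryr1. The causes were not tested. The replicate numbers belong to different animals, and deviations of same-numbered samples had correlations of -0.08 to 0.13, so they do not pair the samples. With the number as a block the count over all genes was 112 and that in the wider lists 0, and Sln was at 0.56. Under upper-quartile factors the median over all tested genes shifted by -0.034. Depth limits Sln, with 9 to 41 counts per library, more than any other of the 10 genes.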
